A study of Mus musculus with 2 samples.

Results

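Matrix metalloproteinases (Mmp), the membrane-bound proteases of the Adam family, their secreted relatives of the Adamts family and the tissue inhibitors of metalloproteinases (Timp) were compared between lungs homozygous for the Nmyc9a allele and wildtype lungs at embryonic day 18. Members were the probe sets of an Affymetrix mouse array whose single gene symbol in the platform annotation began with Mmp or Adam followed by a digit, or was Adamts or Timp followed only by its number. The rule found 116 probe sets for 65 genes, of 18193 genes named by the array: 18 Mmp, 28 Adam, 15 Adamts and 4 Timp genes. The Nmyc9a group, a homozygote of a hypomorphic allele of Mycn (N-Myc), held 1 array and the wildtype group held 1 array, both made from whole lungs that had been pooled. How many lungs entered a pool, their strain and their sex are not stated in the labels used here. A pool shows nothing of the spread between animals, so no difference below has a replicate check or a p-value, and the number of arrays limits the precision.

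The active enzymes of these families carry a zinc ion at the active site, and some Adam proteins have lost their activity. Mmp enzymes degrade collagens, elastin, laminin and other matrix proteins and are made as inactive precursors. Adam enzymes cut the extracellular part off membrane proteins, such as growth factors and Notch, while Adamts enzymes process procollagens and the large aggregating proteoglycans. Timp proteins block the active site of Mmp enzymes, and some also block Adam and Adamts enzymes. In the fetal lung, matrix turnover by these enzymes accompanies airway branching and the thinning of the walls between the air spaces.

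Signals are the deposited intensities after the Nmyc9a-labelled array was multiplied by 0.977. They are compared between the arrays for 1 probe set at a time and not between genes, since probes differ in brightness. A gene took its brightest probe set, and it was measured where the mean signal of the arrays reached a floor of 49.3. Values under the floor were raised to it before ratios were taken, so such a ratio is a bound. Each log2 ratio is Nmyc9a over wildtype, and a size of 1.5-fold (0.58 on the log2 scale) was used to count genes. The disagreement between probe sets of 1 gene gave a pooled SD of the log2 ratio of 0.40 over 5671 genes, and of 0.33 over 15 member genes.

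Mycn, the altered gene, read 84.8 on the Nmyc9a-labelled array and 66.3 on the wildtype array by its brightest probe set, and a second probe set read 85.4 on the Nmyc9a-labelled array and 51.1 on the wildtype array. The files do not place these probes within the gene, so they could not check the label. Markers of lung were present on both arrays. Surfactant protein C (Sftpc) read 8966 on the Nmyc9a-labelled array and 8639 on the wildtype array, and none of 8 lung epithelial markers was 1.5-fold apart.

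Most of the measured member genes stayed under 1.5-fold between the arrays, as did most of all measured genes. Of 65 member genes 38 were measured, 58.5% of the members against 69.3% of all genes. Among these, 1 gene (2.63%) was at least 1.5-fold higher on the Nmyc9a-labelled array, Adamts16, where 6.33% of 12600 measured genes were. At least 1.5-fold lower were 4 genes (10.5%), Mmp7, Mmp23, Timp1 and Timp2, where 9.7% of all measured genes were. The shares of members past this size were thus below the background for higher genes and near it for lower genes, and neither is a result about the members. The median log2 ratio of the members was -0.14, beside -0.09 for all measured genes, with 15 members above 0 and 23 (60.5%) below, where 58.7% of all measured genes were below 0. By family the medians were -0.01 for 10 Mmp genes, -0.05 for 14 Adam genes, -0.17 for 10 Adamts genes and -0.57 for 4 Timp genes. At 2-fold, Adamts16 was the 1 higher member (1.29% of all measured genes were higher) and Mmp7 the 1 lower member (1.38% were lower). Around the 1.5-fold rule, Mmp23 (-0.67) and Timp2 (-0.65) lay just inside it, and Adam9 (-0.53), Adam15 (-0.50) and Timp4 (-0.49) just outside.

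**Figure D1:**
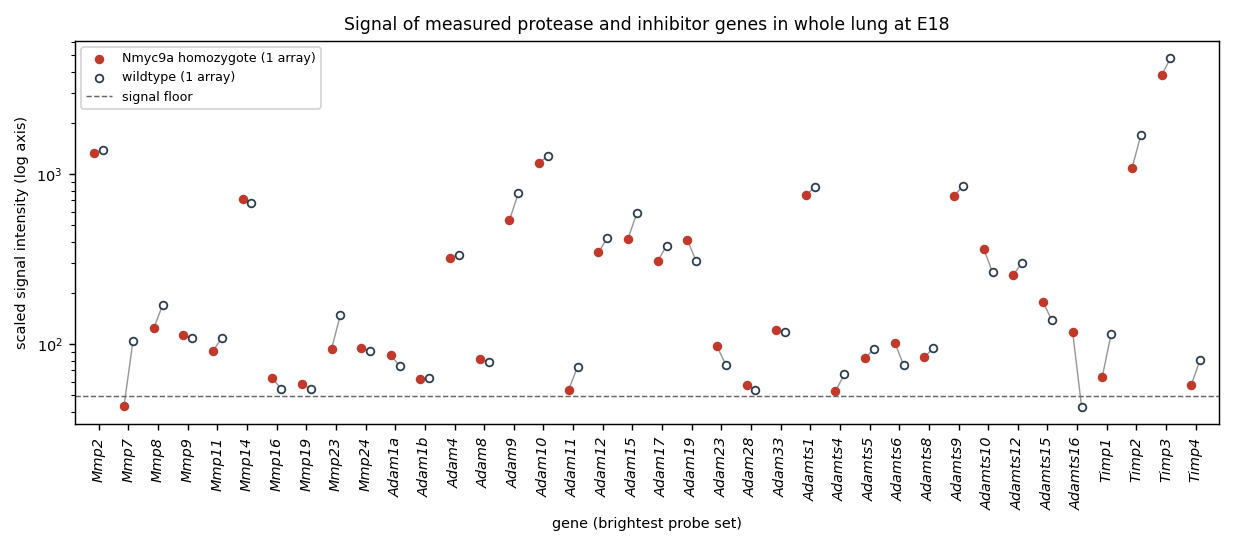
Scaled signal intensity (log axis) of the brightest probe set of each of the 38 measured member genes, with the Nmyc9a-labelled array as a filled point left of the wildtype array as an open point. Points joined by a line belong to 1 gene, the dashed line is the floor of 49.3, and only Mmp7 (43.3 on the Nmyc9a-labelled array) and Adamts16 (42.9 on the wildtype array) have a point under it; heights of different genes are not comparable.

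**Figure D2:**
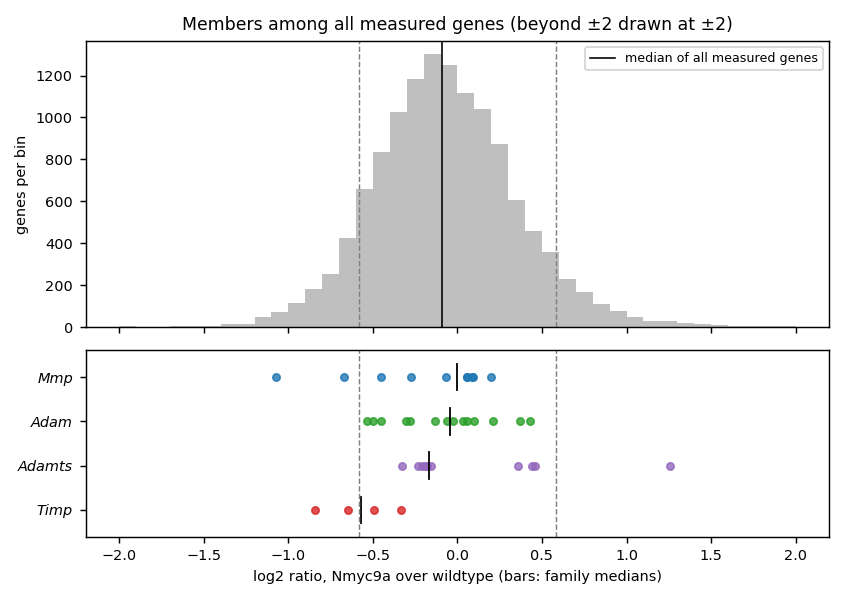
Log2 ratios, Nmyc9a over wildtype, as a histogram of all 12600 measured genes (upper panel) and as points for the measured members by family (lower panel), with black bars at the medians and dashed lines at 1.5-fold. The medians of the Mmp, Adam and Adamts genes lie near that of all genes, while all 4 Timp points lie below 0, between -0.84 and -0.34.

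Mmp7 had the lowest ratio of any measured member. Matrilysin, its product, is a small secreted Mmp that lacks the hemopexin-like domain and is made mainly by epithelium. It read 43.3 on the Nmyc9a-labelled array and 104 on the wildtype array, so it was at least 2.10-fold lower, a bound set by the floor. Mmp7 has 1 probe set here, and no second one bears on its value. Mmp23, whose product is anchored in the membrane until it is cut free, read 93.6 on the Nmyc9a-labelled array and 149 on the wildtype array. It was 1.59-fold lower by this probe set, while its other probe set was below the floor on both arrays (32.1 on the Nmyc9a-labelled array and 34.3 on the wildtype array).

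The gelatinases and their activator were close to equal on the arrays. Mmp2, which degrades denatured collagen and basement membrane collagen, read 1326 on the Nmyc9a-labelled array and 1388 on the wildtype array by its brightest probe set (log2 ratio -0.07) and 882 on the Nmyc9a-labelled array and 1056 on the wildtype array by the other (-0.26). Mmp14, the membrane-anchored enzyme that activates the Mmp2 precursor, read 713 on the Nmyc9a-labelled array and 672 on the wildtype array (0.09). All 3 Mmp14 probe sets were above 0, the dimmest at 0.35. Mmp9, the second gelatinase, read 113 on the Nmyc9a-labelled array and 108 on the wildtype array, a log2 ratio of 0.06. Its other probe set was below the floor on both arrays (5.08 on the Nmyc9a-labelled array and 7.4 on the wildtype array). Each of the log2 ratios given here lay within the probe set SD of 0.40.

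Remaining Mmp genes stayed under 1.5-fold. Mmp8, the collagenase that neutrophils store, read 124 on the Nmyc9a-labelled array and 169 on the wildtype array (log2 ratio -0.45). Mmp11, which is activated inside the cell by furin, read 90.4 on the Nmyc9a-labelled array and 109 on the wildtype array (-0.27). The neutrophil list, whose cells are a known source of Mmp8, had 1 of 8 measured markers higher and 2 lower. Among all measured genes 6.33% were higher and 9.7% lower by 1.5-fold. The signals of the 9 neutrophil markers summed to 3025 on the Nmyc9a-labelled array and 4393 on the wildtype array, and none was at 0. The part of this in the Mmp8 value was not tested. Mmp24, a membrane-type enzyme, read 94.8 on the Nmyc9a-labelled array and 91.1 on the wildtype array (0.06) by its brightest probe set but 59.8 on the Nmyc9a-labelled array and 93.9 on the wildtype array (-0.65) by another, so its probe sets went opposite ways. Mmp16, a further membrane-type enzyme, stood at 0.20 from signals near the floor (62.7 on the Nmyc9a-labelled array and 54.7 on the wildtype array), and Mmp19 at 0.09 (58.1 on the Nmyc9a-labelled array and 54.5 on the wildtype array). Mmp17, also of the membrane type, was not measured.

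Both Mmp7 and Mmp8 belong to a run of 9 member genes within 427 kilobases of mouse chromosome 9 (chr9:7272514-7699585, GRCm38.p6), in the order Mmp13, Mmp12, Mmp1b, Mmp3, Mmp1a, Mmp10, Mmp8, Mmp20 and Mmp7. These were the only measured genes of the 9, and both were below 0. The unmeasured genes of the run include the interstitial collagenases Mmp1a, Mmp1b and Mmp13, stromelysins Mmp3 and Mmp10, the macrophage elastase Mmp12 and the enamel protease Mmp20. Mmp10 was above the floor on the wildtype array alone (58.2, with 16.5 on the Nmyc9a-labelled array), and its mean left it unmeasured. The brightest of the other unmeasured genes of the run, Mmp3, read 41.5 on the Nmyc9a-labelled array and 43.9 on the wildtype array.

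The upstream sequence of Mmp7, the member with the lowest ratio, is shown with the AP-1 motif (TGAGTCA, or TGACTCA on the other strand) in capitals, because AP-1 sites are a textbook feature of Mmp promoters. It covers the 250 bases before the annotated start on the plus strand, chr9:7691840-7692089 in GRCm38.p6, from RefSeq. The motif begins 63 bases before the start.
Mmp7: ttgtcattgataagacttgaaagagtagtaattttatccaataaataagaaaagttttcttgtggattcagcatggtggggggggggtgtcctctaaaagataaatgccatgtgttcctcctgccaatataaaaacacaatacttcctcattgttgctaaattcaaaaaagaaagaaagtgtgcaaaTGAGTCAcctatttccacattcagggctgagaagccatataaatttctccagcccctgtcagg
The RefSeq promoter table matched 37 of the 65 member genes, with 42 starts. Within the 250 bases before the start, AP-1 was found at 8 of 42 member starts (19.0%) and at 4.46% of all 32851 starts in the table. Of these 8 starts 7 belong to the chromosome 9 run, and the eighth is a start of Adam19. Stretches of 27 bases around the motif in the other 6 genes of the run read TGACTCA in Mmp13 and TGAGTCA in the other 5, on the plus strand except for Mmp1b. The related genes Mmp1a and Mmp1b are near alike on the downstream side of the motif.
Mmp13: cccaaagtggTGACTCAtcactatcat
Mmp12: acatcaacagTGAGTCAgatagaggat
Mmp1b: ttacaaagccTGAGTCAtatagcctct
Mmp3: gaagcaattaTGAGTCAgttttcgggt
Mmp1a: ttgtcaaccaTGAGTCAcatagcctct
Mmp10: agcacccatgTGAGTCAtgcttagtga
The motif began 35 bases before the start in Mmp13, 93 in Mmp1b, 46 in Mmp3, 73 in Mmp1a and 63 in Mmp10. In Mmp12 the motif began 44 bases before a second annotated start, and the window of the first Mmp12 start did not hold it. Of the 21 measured members in the table, none but Mmp7 and Adam19 held AP-1 in this window, and Mmp8 in the middle of the run did not hold it. A match describes letters and is no evidence that a factor binds there.

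The E-box CACGTG, the sequence to which Myc proteins bind with their partner Max, was searched in the same windows because the altered gene is Mycn. It reads the same on both strands. It was found at 4 of 42 member starts (9.52%), in Adam10, Adam19, Adam6a and a second annotated start of Mmp7, and at 6.02% of all starts. No member start held both motifs. The stretches of 26 bases around it in the measured genes lie at chr9:70678908-70678933 (Adam10), chr11:46054362-46054387 (Adam19) and chr9:7692281-7692306 (Mmp7), all on the plus strand.
Adam10: gccgtcgcgtCACGTGgcgagaaagg
Adam19: gacctggtgaCACGTGgggcttgaca
Mmp7: gccaatattcCACGTGtggttttgaa
The Mmp7 stretch lies downstream of the first Mmp7 start. The log2 ratios of these genes pointed different ways, at -0.13 for Adam10, 0.43 for Adam19 and -1.07 or lower for Mmp7.

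None of the 14 measured Adam genes was 1.5-fold apart in either direction. Most genes on the array also stayed under this size, since 6.33% of the 12600 measured passed it upward and 9.7% downward. With only 14 genes, the absence of any past it is not a result about the family. Among the 9 proteolytic Adam genes that many tissues express, all measured, 4 were above 0 and 5 below, with a median of -0.13. Adam17, which releases tumour necrosis factor and several ligands of the epidermal growth factor receptor, read 307 on the Nmyc9a-labelled array and 379 on the wildtype array (log2 ratio -0.30). Its other probe sets stood at -0.54 and -0.01. Adam10, which cuts Notch and cadherins, read 1166 on the Nmyc9a-labelled array and 1277 on the wildtype array (-0.13), with other measured probe sets at 0.09 and -0.52. By their brightest probe sets both genes thus lay within the probe set SD of 0.40.

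Adam9 had the lowest ratio of the family and Adam19 the highest. Adam9, a widely expressed sheddase, read 534 on the Nmyc9a-labelled array and 773 on the wildtype array by its single probe set (log2 ratio -0.53). Adam19, also called meltrin beta, which can release neuregulin, read 412 on the Nmyc9a-labelled array and 307 on the wildtype array (0.43). Both Adam19 probe sets were higher, the dimmer one at 180 on the Nmyc9a-labelled array and 107 on the wildtype array, a log2 ratio of 0.75. Adam15 showed the opposite kind of record, since its 4 probe sets spread from -0.50 (417 on the Nmyc9a-labelled array and 590 on the wildtype array, the brightest) to 0.37. Adam12, meltrin alpha, read 346 on the Nmyc9a-labelled array and 421 on the wildtype array (-0.28), and its second probe set stood at -0.06.

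Other Adam genes lay near the floor or near 0. Adam8, found on myeloid cells, read 81.7 on the Nmyc9a-labelled array and 78.7 on the wildtype array (log2 ratio 0.05). Adam28 read 57.6 on the Nmyc9a-labelled array and 53.7 on the wildtype array (0.10), and Adam33, a gene of mesenchyme, 121 on the Nmyc9a-labelled array and 118 on the wildtype array (0.03). Their differences were far smaller than the SD between probe sets. Adam23 and Adam11, whose products lack a working catalytic site and act in nerve cell adhesion, went opposite ways. Adam23 read 97.2 on the Nmyc9a-labelled array and 75.4 on the wildtype array (0.37), with a second probe set at 0.36, and Adam11 read 53.8 on the Nmyc9a-labelled array and 73.6 on the wildtype array (-0.45). Of 16 further Adam genes, most of them known from mouse testis and sperm, 3 were measured, namely Adam1a at 85.8 on the Nmyc9a-labelled array and 74.3 on the wildtype array (0.21), Adam1b at 62.1 on the Nmyc9a-labelled array and 63.3 on the wildtype array (-0.03) and Adam4 at 322 on the Nmyc9a-labelled array and 336 on the wildtype array (-0.06). The 14 Adam genes that were not measured were Adam2, Adam3, Adam5, Adam6a, Adam6b, Adam7, Adam18, Adam21, Adam22, Adam24, Adam25, Adam26a, Adam32 and Adam34.

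Adamts16 had the highest ratio of all measured members. Its product is a secreted protease with thrombospondin repeats, known from work on kidney and gonad. The brightest probe set read 118 on the Nmyc9a-labelled array and 42.9 on the wildtype array, so it was at least 2.39-fold higher. The second probe set pointed the same way but less far, at 71.9 on the Nmyc9a-labelled array and 57.5 on the wildtype array (log2 ratio 0.32). Signals of both probe sets were within a few-fold of the floor, and the size rests on the brighter one.

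By their brightest probe sets, most of the measured Adamts genes that cleave versican and aggrecan were below 0 by small amounts. This did not hold for every probe set, since Adamts9 had others at 0.83 and 0.79. Adamts1 read 752 on the Nmyc9a-labelled array and 836 on the wildtype array (log2 ratio -0.15), Adamts4 52.9 on the Nmyc9a-labelled array and 66.4 on the wildtype array (-0.33) and Adamts8 83.5 on the Nmyc9a-labelled array and 95.3 on the wildtype array (-0.19). By the brightest probe set, only Adamts15 of the 6 measured genes of this kind was above 0. It read 177 on the Nmyc9a-labelled array and 138 on the wildtype array (0.36). The other members of the group, Adamts5 and Adamts9, had probe sets of both signs. Adamts5, a major aggrecanase, read 82.8 on the Nmyc9a-labelled array and 93.7 on the wildtype array by its brightest probe set (-0.18), with the others at -0.62 and 0.24.

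Adamts9, which cleaves versican and is widely expressed in embryos, gave the widest conflict between probe sets. The brightest read 740 on the Nmyc9a-labelled array and 856 on the wildtype array, a log2 ratio of -0.21. The second read 506 on the Nmyc9a-labelled array and 285 on the wildtype array (0.83), and the third read 413 on the Nmyc9a-labelled array and 239 on the wildtype array (0.79). All 3 were well above the floor on both arrays, and 2 of 3 were over 1.5-fold higher while the one that stands for the gene was lower. The files do not say which transcript part each probe set covers.

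Adamts10 and Adamts6, homologous proteases linked to fibrillin microfibrils, were both above 0. Adamts10 read 363 on the Nmyc9a-labelled array and 264 on the wildtype array (log2 ratio 0.46), and its second probe set read 69.1 on the Nmyc9a-labelled array and 30.6 on the wildtype array (0.49 or higher). Adamts6 read 102 on the Nmyc9a-labelled array and 75 on the wildtype array (0.44). Each stayed under 1.5-fold, close to the SD between probe sets. Adamts12, which cleaves cartilage oligomeric matrix protein, read 256 on the Nmyc9a-labelled array and 301 on the wildtype array (-0.23). Its second probe set pointed the other way but did not reach the floor on average. That probe set read 64.4 on the Nmyc9a-labelled array and 30.5 on the wildtype array. The unmeasured members of the family were Adamts3, a procollagen N-proteinase, and Adamts7, Adamts18, Adamts19 and Adamts20.

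All 4 inhibitors read lower on the Nmyc9a-labelled array, 2 of them by at least 1.5-fold. Of all measured genes 58.7% were below 0 and 9.7% were at least 1.5-fold lower. Timp1, an inducible secreted inhibitor, read 64.2 on the Nmyc9a-labelled array and 115 on the wildtype array and was 1.79-fold lower by its single probe set. Timp2, which both inhibits Mmp2 and takes part in its activation with Mmp14, read 1082 on the Nmyc9a-labelled array and 1695 on the wildtype array and was 1.57-fold lower. The other 4 measured probe sets of Timp2 were also below 0, at -0.62, -0.45, -0.24 and -0.12, so the direction was shared and the size was not. Timp3, which binds to the matrix and also inhibits Adam17, read 3814 on the Nmyc9a-labelled array and 4813 on the wildtype array (log2 ratio -0.34). The other Timp3 probe sets stood at -0.30, -0.10 and 0.07. Timp4 read 57.5 on the Nmyc9a-labelled array and 80.9 on the wildtype array (-0.49), and its second probe set did not reach the floor on average. After quantile normalization or loess Timp2 stood at -0.42, under 1.5-fold, and Timp1 stood at -0.54 with a pseudocount in place of the floor. All 4 genes stayed below 0 in every setting tried in which they were measured. Fewer cells of a type and less RNA per cell cannot be told apart in whole-lung RNA, here and for every gene above.

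**Figure D3:**
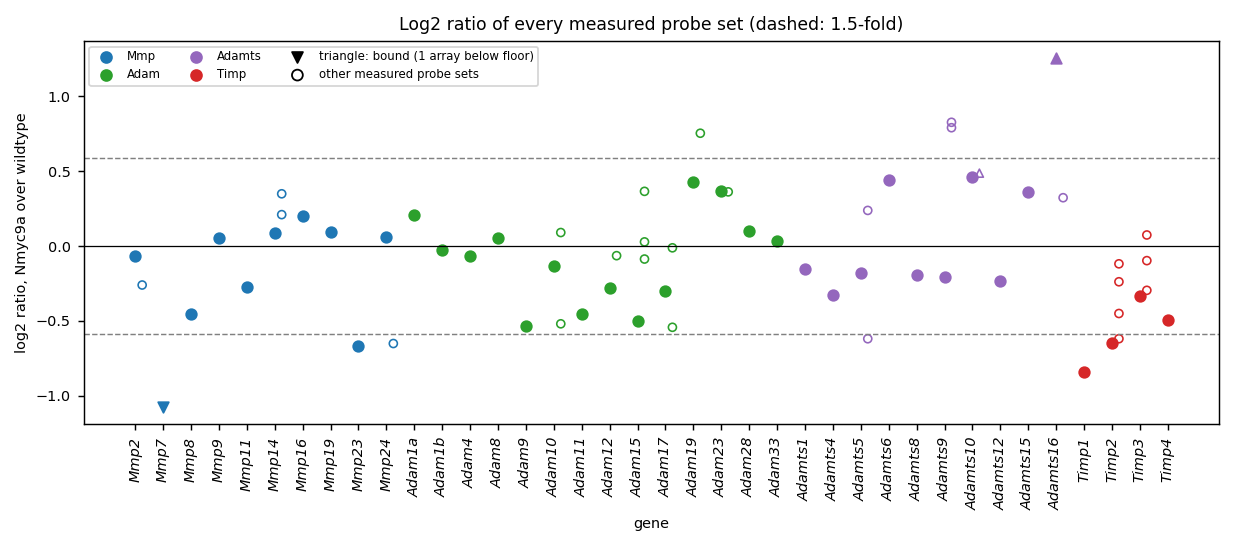
Log2 ratio, Nmyc9a over wildtype, of every measured probe set of the 38 measured genes, filled for the brightest and open for the others, with dashed lines at 1.5-fold. Triangles mark bounds, filled for the brightest probe sets of Mmp7 and Adamts16 and open for the second probe set of Adamts10. All Timp2 probe sets lie below 0, whereas those of Adamts9 lie on both sides, from -0.21 to 0.83.

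For 15 member genes 2 or more probe sets were measured: in 5 genes every one was above 0, in 4 every one was below 0 and in 6 the signs were mixed. Counted by probe set, 4 of 65 measured member probe sets were at least 1.5-fold higher and 7 were lower. Of all 22457 measured probe sets with 1 symbol, 2094 were higher and 2074 lower by this size. The median was -0.07 for the member probe sets, against -0.05 for all 22457.

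Several cell type lists also differed between the arrays. Of smooth muscle and pericyte markers, 4 of 7 measured were 1.5-fold lower and none higher, and the signals of all 8 summed to 3566 on the Nmyc9a-labelled array and 5090 on the wildtype array. The list was mixed, with Acta2, Myh11, Tagln and Rgs5 lower but Des at 0.39, Pdgfrb at 0.34 and Cspg4 at 0.24. Mesothelial markers had 3 of 6 lower and none higher, with a sum over 7 markers of 1928 on the Nmyc9a-labelled array and 3575 on the wildtype array. This list was mixed too, with Msln, Aldh1a2 and Krt19 lower, Upk3b at -0.29, Bnc1 at -0.10 and Muc16 at 0.34 or higher. Krt19, its brightest marker, read 769 on the Nmyc9a-labelled array and 1728 on the wildtype array. Proliferation genes had 7 of 7 lower, with a sum over these 7 of 1763 on the Nmyc9a-labelled array and 3725 on the wildtype array. No marker of these lists was at 0 on either array. Fibroblast markers had 1 of 8 lower, Dcn, with 6 of 8 below 0 and a median of -0.13. Their sum, 25829 on the Nmyc9a-labelled array and 25372 on the wildtype array, was carried by Fn1 (7279 on the Nmyc9a-labelled array and 5432 on the wildtype array). Liver markers had 4 of 5 measured higher and none lower, and the signals of the 7 on the array summed to 1191 on the Nmyc9a-labelled array and 326 on the wildtype array. Skeletal muscle markers had 2 of 5 measured higher and none lower (906 on the Nmyc9a-labelled array and 484 on the wildtype array, summed over 7 markers). The part of these cell types in the Timp, Mmp7 or Adamts16 values was not tested.

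Macrophage markers, which bear on Mmp12 and Adam8, had 2 of 8 measured higher and 2 lower. Among all measured genes 6.33% were higher and 9.7% lower. Cartilage markers had none of 6 past 1.5-fold, and 1 of 6 testis markers was measured. The control probe sets gave a ratio of 3′ to 5′ signal of 0.683 for Gapdh on the Nmyc9a-labelled array and 0.770 on the wildtype array. For beta-actin this ratio was 1.20 on the Nmyc9a-labelled array and 1.18 on the wildtype array.

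A list of other protease inhibitors and cofactors, not limited to those of the families above, was mostly lower, by small amounts. Of 9 measured genes 8 were below 0, where 58.7% of all measured genes were, with a median of -0.27. At least 1.5-fold lower were 2 of the 9, where 9.7% of all measured genes were. Thbs2 and Thbs1, thrombospondins that bind several matrix proteases, stood at -1.03 (134 on the Nmyc9a-labelled array and 274 on the wildtype array) and -0.69 (377 on the Nmyc9a-labelled array and 607 on the wildtype array), and Thbs1 was under 1.5-fold after quantile normalization or loess. Reck, a membrane-anchored Mmp inhibitor, read 432 on the Nmyc9a-labelled array and 521 on the wildtype array (-0.27), and Spock2 was the only one above 0, at 0.10. Of the Adamts-like proteins, which resemble Adamts proteases without the catalytic domain, 1 of 5 measured was higher and 1 lower. Among all measured genes 6.33% were higher and 9.7% lower, and counts in a list of 5 are not a result about it. Adamtsl4, which binds fibrillin, read 290 on the Nmyc9a-labelled array and 181 on the wildtype array (1.60-fold higher), and Adamtsl1 read 55.2 on the Nmyc9a-labelled array and 95.5 on the wildtype array (1.73-fold lower). Adamtsl2, which also binds fibrillin, lay at the edge of the size rule with 592 on the Nmyc9a-labelled array and 396 on the wildtype array (0.58, just under 1.5-fold), and it was past 1.5-fold as deposited and after quantile normalization or loess. With a pseudocount none of the Adamts-like genes was past 1.5-fold, while Thbs1 and Thbs2 were still lower by this size.

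The activating and partner proteins of Adam and Mmp enzymes had no gene past 1.5-fold as scaled here. Among 10 measured convertases, iRhom proteins and tetraspanins the median was 0.00. Furin, which removes the inhibitory part of many precursors, stood at 0.11, and Rhbdf2, an iRhom that carries Adam17 to the cell surface, at -0.39 was the lowest. Of 14 measured shed ligands and receptors none passed 1.5-fold, with a median of -0.10, Notch1 the highest at 0.57 and Jag1 the lowest at -0.39. Notch1 was just past 1.5-fold higher as deposited and after quantile normalization or loess. The plasminogen system had none of 4 past 1.5-fold, with a median of -0.11. Across the array, 6.33% of the 12600 measured genes passed this size upward and 9.7% downward. Lists of 10, 14 and 4 genes are too short for the lack of such genes to be a result about them. Of the astacin proteases, Bmp1, which cuts the C-terminal part from procollagens, stood at 0.31.

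The 17 measured matrix substrates had a median of -0.05, with 1 gene 1.5-fold higher and 2 genes lower. Vcan, versican, the proteoglycan that Adamts1, Adamts5 and Adamts9 cleave, read 96 on the Nmyc9a-labelled array and 238 on the wildtype array and was 2.47-fold lower. Bcan, brevican, a proteoglycan of brain matrix, read 114 on the Nmyc9a-labelled array and 50 on the wildtype array and was 2.28-fold higher. Dcn, decorin, read 386 on the Nmyc9a-labelled array and 592 on the wildtype array (1.53-fold lower), and was under 1.5-fold as deposited, after quantile normalization or loess and with a pseudocount. Collagen genes stayed close to equal, with Col1a1 at 0.14, Col3a1 at -0.22 and Col4a1 at 0.20, and Eln, elastin, stood at 0.07.

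**Figure D4:**
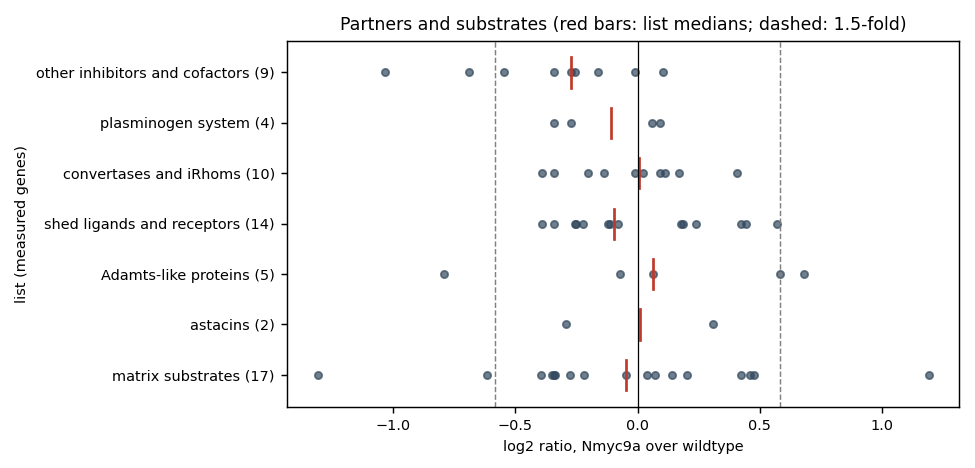
Log2 ratio, Nmyc9a over wildtype, of measured genes in 7 lists of partners and substrates, 1 point a gene, with red bars at list medians and dashed lines at 1.5-fold. Medians run from -0.27 for other inhibitors and cofactors to 0.06 for Adamts-like proteins; the farthest points are Vcan at -1.31 and Bcan at 1.19.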

How the data were processed

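The values are the intensities deposited by the authors, a linear signal for each of 45101 probe sets on 2 arrays; per the labels, total RNA was extracted with Trizol and an RNeasy kit and labelled with biotin. Neither the signal algorithm nor any scaling step is named in the labels used here. Both arrays had a mean of 150 once 2% of probe sets at each end were trimmed.

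The 64 control probe sets were set aside. The Nmyc9a-labelled array was multiplied by 0.977, which set to 0 the median log2 ratio of probe sets at or above the floor (the 40th percentile of the scaled signals). Symbols came from the platform annotation, which named 1 gene for 34945 probe sets and several for 932, and were updated through Entrez identifiers to RefSeq GRCm38.p6 (34741 matched). No test was possible with 1 array per group. All measured members were named, and of other lists those past 1.5-fold, the extremes and a few known partners, these partners being chosen after their values were seen. Members and lists were chosen with earlier results of these data known. The steps were tested on simulated data with Python 3.11.15, numpy 2.4.6 and pandas 2.3.3. Alternatives changed the scaling, the floor, the pseudocount, the choice of probe set and the size rule.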

Additional observations from a re-analysis of the deposited data

How the results depend on the processing

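Of 65 recomputed values of the family medians and member counts, 59 stayed within the SD between probe sets (medians) or within 1.5 times (counts), and no gene past 1.5-fold changed sign in any of the 9 settings tried. The count of higher members was 2 with the floor at the 20th percentile (Adamts16 and Adamts18). It was 0 with the floor at the 60th percentile, where Adamts16 was no longer measured. It was 3 when a gene took the median over its probe sets (Adam19, Adamts9 and Adamts16). The shares of all measured genes that were higher in these settings were 10.6%, 3.79% and 5.84%. The floor at the 20th percentile also made Mmp10 a lower member (5 in all), where 11.6% of all measured genes were lower. The count of lower members was 1 with the floor at the 60th percentile, 2 with a pseudocount equal to the floor of 49.3, which shrinks ratios of dim genes, and 1 under the 2-fold rule. The shares of all measured genes that were lower in these settings were 9.38%, 5.33% and 1.38%. Timp2 stood at -0.42 after quantile normalization or loess with a span of 0.3, and at -0.45 as the median over its probe sets, under 1.5-fold in each, and the cause was not tested. After either scaling, Timp4 and Adam11 were over 1.5-fold lower. The Timp median stayed between -0.57 and -0.43. The Adamts median was above 0 after loess (0.02) and by the median of probe sets (0.10), the Mmp median as deposited (0.03), and the Adam median with the floor at the 20th percentile (0.00). As the median over its probe sets Adamts9 moved to 0.79. Counts of the partner and substrate lists moved as well, in that Tspan17 was higher without x, s and a probe sets (names ending in _x_at, _s_at or _a_at), Fn1 was higher after loess and by the median over probe sets, while the 20th percentile floor made Spock1 and Spock3 higher and Plau lower. Bcan was not called with the floor at the 60th percentile or without x, s and a probe sets. Adamtsl4 was not called without them, nor Adamtsl1 with the floor at the 60th percentile or by the median over probe sets. No scaling moved the median of all genes by over 0.1. No paired analysis was possible because each group holds 1 array.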

Other observations

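Adam4, a gene known from mouse testis, read 322 on the Nmyc9a-labelled array and 336 on the wildtype array by its only probe set, well above the floor of 49.3. The testis markers Tnp1, Prm1, Acrv1, Odf1 and Spaca1 were not measured on these arrays, and Prm2 was.

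The versican-cleaving genes Adamts1, Adamts5 and Adamts9 can be set beside their substrate gene Vcan, though cleavage acts on the protein and these values are RNA. By its dimmer probe sets Adamts9 stood at 0.83 and 0.79 and by its brightest at -0.21, while Vcan stood at -1.31 by its brightest probe set. By their brightest probe sets Adamts1 stood at -0.15 and Adamts5 at -0.18. A link between these genes and Vcan was not tested. Whether the Adamts9 probe sets report different transcripts was not tested.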
